A study of Drosophila melanogaster with 50 samples.

Results

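The genes described here are the fly enzymes that methylate lysine 9 of histone H3, the cofactor of one of them, and the HP1 proteins with a close partner. They were chosen by name and found by their FlyBase identifiers, and all 9 were listed in each of the 5 deposited gene tables, which hold 17875 genes for ovaries and 17612 for embryos. The members are egg (FBgn0086908), wde (FBgn0027499), Su(var)3-9 (FBgn0263755), G9a (FBgn0040372), the HP1a gene Su(var)2-5 (FBgn0003607, called HP1a from here on), HP1b (FBgn0030082), HP1c (FBgn0039019), HP1e (FBgn0037675) and Su(var)3-7 (FBgn0003598). The study depleted the histone demethylase Kdm3 in the female germ line of Drosophila melanogaster (Kdm3 GLKD) with a short hairpin RNA under UAS control, driven by nosGAL4. Ovaries of Kdm3 GLKD females were set against those of sisters wild type for Kdm3 (control), with 3 libraries of RNA and 3 of small RNA for each genotype. Chromatin immunoprecipitation of the same 2 genotypes used 3 libraries each for H3K9me2 and H3K9me3 and 2 for Rhino. Embryos of Kdm3 GLKD mothers were set against embryos of mothers with a germline knockdown of white (w GLKD), with 2 libraries each for RNA at 3-5 h and for small RNA at 0-2 h and 3-5 h. The labels give the ovaries as germline and somatic cells together, 100 pairs for each immunoprecipitation, while the driver acts in the germ line, so somatic cells were not targeted. The hairpin is 1 TRiP line, and in the crosses that the study describes the driver came together with BX2, an inactive cluster of P(lacW) transgenes. The age of the females is not given in the sources used here. In such tissue, fewer cells of a type and less RNA per cell cannot be told apart.

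Methylation of H3K9 marks heterochromatin. A methyltransferase adds the methyl groups, HP1 proteins bind the methylated tail through a chromodomain, and bound HP1 recruits further factors, among them methyltransferases, so that the mark can spread. In the ovary, egg and its cofactor wde act in the germ line, and the piRNA pathway guides this methylation to transposons. The HP1 relative Rhino binds H3K9me3 at the dual-strand piRNA clusters.

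The files bear on these genes in 2 ways. The gene tables give a base mean, the authors' average of normalised read counts over all libraries of both genotypes, so a base mean describes the material and not the knockdown. The peak lists give 1 list for each mark and genotype, and they are the only values used here that separate Kdm3 GLKD from control. No list has replicates, so no difference between lists has a replicate check. A level below is a base mean per kb of exon, with each table's sum scaled to 1000000, and its percentile is the share of genes above 0 in that table with a lower level. The sums of base means were 34376200 for ovary RNA, 19078500 for embryo RNA and 4688960 for ovary small RNA, but 142146 and 109515 for small RNA of 0-2 h and 3-5 h embryos. The embryo small RNA values rest on few reads. The 5 tables were normalised separately, and levels from different tables are set side by side without a test.

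Markers of germline and of follicle cells were both detected in the ovary. All 5 germline markers found in the annotation and all 6 follicle cell markers had an ovary RNA base mean of at least 10, with median percentiles of 95.5 and 82.9. None of the 6 testis markers reached 10 in either tissue, and 2 were at 0 in the ovary and 3 in the embryo. The 3 muscle markers reached 10 in both tissues, with summed levels of 81.3 in the ovary and 482 in the embryo. The 6 early zygotic markers had a median percentile of 8.02 in the ovary and 86.9 in the embryo, and the 3 maternal markers found had 98.2 and 88.4. Of the early zygotic markers, 2 reached 10 in the ovary, Kr with 18.8 and twi with 1433 at percentile 68.6.

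3 stretches of sequence carry the results on peaks. The first is shown because it lies within the only H3K9me3 peak that a member had in control and lacked in Kdm3 GLKD. It is chr3R:15262485-15262784 of dm6, read on the minus strand as Su(var)3-9 is transcribed, with the second exon in capitals. That exon of 175 bp is coding, and the neighbour eIF2gamma uses the same exon.
Su(var)3-9 second exon: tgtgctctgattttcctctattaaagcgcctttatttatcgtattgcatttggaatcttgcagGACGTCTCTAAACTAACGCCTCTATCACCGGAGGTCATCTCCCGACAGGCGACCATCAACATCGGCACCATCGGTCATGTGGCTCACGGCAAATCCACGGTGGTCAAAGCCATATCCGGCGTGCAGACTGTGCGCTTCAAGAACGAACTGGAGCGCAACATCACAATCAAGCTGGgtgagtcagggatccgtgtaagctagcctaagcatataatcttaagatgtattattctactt
The next is shown because it is the centre of the H3K9me2 peak that G9a had in Kdm3 GLKD only. It is chrX:250270-250569 on the plus strand, with 242 coding bases in capitals.
G9a peak centre: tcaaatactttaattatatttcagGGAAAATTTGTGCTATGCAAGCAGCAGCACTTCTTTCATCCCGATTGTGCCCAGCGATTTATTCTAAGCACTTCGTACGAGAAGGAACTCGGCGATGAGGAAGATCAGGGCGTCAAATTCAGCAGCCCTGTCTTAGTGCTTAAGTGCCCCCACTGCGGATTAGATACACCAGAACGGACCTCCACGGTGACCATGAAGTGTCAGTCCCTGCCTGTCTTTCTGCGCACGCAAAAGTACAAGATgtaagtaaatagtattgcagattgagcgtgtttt
The last is the gap of 93 bp between the shared start of Su(var)3-9 and eIF2gamma and the divergent gene Set, chr3R:15263459-15263551 on the minus strand. It is shown because the control H3K9me3 peak stopped short of it and because it holds both capitalised matches to TATCGATA, the DNA replication-related element of many fly housekeeping promoters.
Su(var)3-9 to Set: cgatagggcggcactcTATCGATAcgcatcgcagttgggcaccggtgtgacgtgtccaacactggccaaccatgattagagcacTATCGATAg
TATCGATA reads the same on both strands. In windows of 200 bp before the gene start, it occurred in 5.90% of 17620 genes and in 1 of the 9 members, Su(var)3-9, with 3 matches. The TATA box letters TATAAA, searched on both strands, occurred in 35.7% of the windows and in 1 member, Su(var)3-7. A match is a description of the letters and not of a bound site.

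Among the methyltransferases, G9a had the highest RNA level in the ovary. G9a, which methylates H3K9 chiefly to the mono- and dimethyl states, lies at chrX:245978-254650 on the plus strand with 9 exons. Its base mean was 27139.7 in the ovary, a level of 109 at percentile 95.6. In 3-5 h embryos its base mean was 7853.18, a level of 56.9 at percentile 89.7. The gene was thus in the upper part of both tables.

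Su(var)3-9, the founding SET domain H3K9 methyltransferase, lies at chr3R:15259864-15263458 on the minus strand. Its base mean was 1216.2 in the ovary, a level of 14.8 at percentile 66.1. In embryos it was 2670.41, a level of 58.7 at percentile 90.0. The gene shares its start and 352 of its 2386 exon bases with eIF2gamma, a subunit of the initiation factor that carries initiator tRNA. The base mean of eIF2gamma was 10807.3 in the ovary and 2981.47 in the embryo. How reads of the shared exons were assigned is not given in the sources used here, so the share of each gene in them was not tested.

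The methyltransferase egg, the fly relative of SETDB1, had the largest gap in percentile between the tables among the members. It lies at chr2R:24775534-24779901 on the minus strand with 8 exons. Its base mean was 391.579 in the ovary, a level of 2.89 at percentile 50.9, and 2662.0 in the embryo, a level of 35.4 at percentile 82.5. The antisense gene asRNA:CR44067 covers 4191 of its 4368 bp on the other strand, with a base mean of 2656.26 in the ovary and 0 in the embryo. The same imbalance held for antisense genes as a class, since 226 of 502 had a base mean of at least 100 in the ovary table and 9 in the embryo table. Their median base means were 53.8 and 0.858. These values are not scaled to the table sums, 34376200 and 19078500, and the share of all genes that reach 100 was not computed. These tables list 17875 and 17612 genes, and whether both were counted alike was not tested. A difference in counting therefore cannot be told apart from one between ovary and embryo, for this imbalance or for the gap of egg. The study's methods name a stranded library protocol, but whether the counting used strand is not given in the sources used here. Without it, reads of egg and of its antisense partner cannot be told apart, so the ovary level of egg is uncertain.

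The cofactor wde, the fly relative of ATF7IP, lies at chr2R:10800420-10808938 on the minus strand with 6 exons. Its base mean was 5519.51 in the ovary, a level of 33.1 at percentile 81.2. In embryos it was 3742.9, a level of 40.4 at percentile 84.7. No other gene overlaps wde, so its levels stand without that limit.

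HP1a, the founding HP1 protein, had the highest RNA level of the 9 genes in both tables. It lies at chr2L:8209626-8211122 on the minus strand. Its base mean was 7356.74 in the ovary, a level of 193 at percentile 97.6, and 5075.66 in the embryo, a level of 240 at percentile 98.0. The zinc finger protein gene Su(var)3-7, whose product binds HP1a, lies at chr3R:13264364-13270038 on the plus strand. Its base mean was 9789.93 in the ovary, a level of 56.4 at percentile 90.0, and 7993.64 in the embryo, a level of 83.0 at percentile 93.6.

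HP1b and HP1c, paralogs of HP1a, had lower levels than HP1a. HP1b (chrX:9081063-9082746, plus strand) had a base mean of 3004.38 in the ovary, a level of 54.7, and 2282.8 in the embryo, a level of 74.9. HP1c (chr3R:22745620-22746605, plus strand) had a base mean of 1186.11 in the ovary, a level of 35.0, and 512.487 in the embryo, a level of 27.2. The third paralog, HP1e, is known for its expression in the male germ line. HP1e (chr3R:9321770-9322361, plus strand) had a base mean of 0.316 in the ovary and 2.17 in the embryo, at percentiles 8.33 and 20.1. It is a gene of 1 exon inside an intron of CG8861, which lies on the other strand and had base means of 135 and 31.5.

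**Figure D1:**
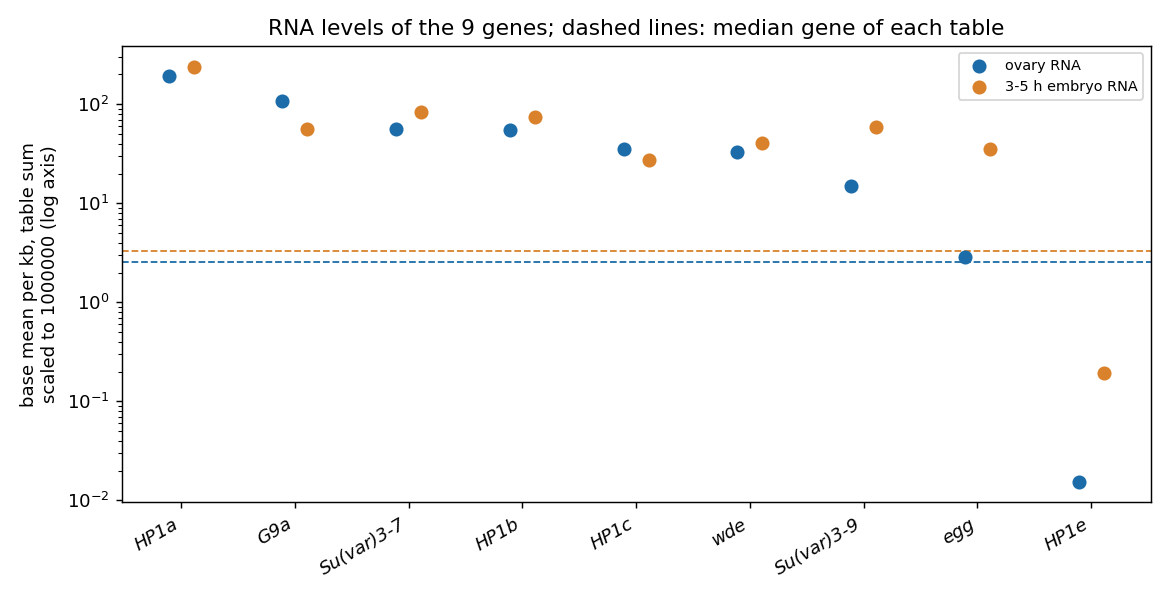
RNA levels of the 9 genes in ovaries (blue) and 3-5 h embryos (orange), as scaled base mean per kb of exon on a log axis; each point is 1 pooled value over both genotypes, with no error, and dashed lines mark the median gene above 0 (2.53 and 3.31). HP1a is highest at 193 and 240, egg lies near the ovary median at 2.89, and HP1e is the only gene below both medians.

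In all, 8 of the 9 genes were above the median gene in ovary RNA and 8 in embryo RNA, with HP1e the exception in each. When only genes with a base mean of 10 or more set the median, 6 were above it in ovary RNA and 8 in embryo RNA. The order of base means was alike in both tables (Spearman's rho 0.90 over the 9 genes, and 0.81 over 17612 genes). Base means are not divided by length, so gene length enters both orders. By level, HP1a was at rank 1, wde at rank 6 and HP1e at rank 9 in both tables. Between ovary and embryo RNA, G9a went from rank 2 to 5, Su(var)3-9 from 7 to 4 and HP1c from 5 to 8. These values are descriptions, since the 9 genes share libraries. Neighbours in the order cannot be told apart, because the pooled values carry no spread.

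Each member's nearest profile was sought over ranks in all 5 tables, here taken as percentiles of all annotated genes that every table lists, with genes at 0 tied, among 12244 genes whose base mean reached 10 in an RNA table. G9a was nearest to CG6927, with a mean difference of 0.410 percentile points, and HP1a to REG with 0.484. wde was nearest to mof with 0.748, Su(var)3-7 to nito with 1.04 and HP1b to CG4968 with 1.48. egg was nearest to Gyg with 2.11, Su(var)3-9 to Zmynd8 with 2.79, and HP1c to CR40005 with 3.24. HP1e was nearest to lncRNA:CR45573 with 0.582, a likeness that rests on values at or near 0.

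Reads of 23 to 29 nt, the size of piRNAs, fell on most of the 9 genes, in an order close to that of their RNA. For these reads the level is per kb of gene span. HP1a had an ovary base mean of 68.7 (level 9.79, percentile 93.5), and G9a had 244 (level 5.99, percentile 90.1). Su(var)3-7 had 82.1 (level 3.09) and Su(var)3-9 had 33.3 (level 1.98), beside 157 for its partner eIF2gamma. HP1c had 7.17 (level 1.55), HP1b 11.1 (level 1.41) and wde 49.4 (level 1.24). All 7 of these were above the median gene, at 0.856, but 3 were when only genes with a base mean of 10 or more set the median. With exon length in place of gene span, wde had a level of 2.17, above HP1c and HP1b.

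The other two were below it. egg had a base mean of 7.78 (level 0.380, percentile 35.5), beside 23.3 for asRNA:CR44067. HP1e was listed at 0 although CG8861, whose intron holds it, had 2915.

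Relative to their RNA, most of the genes lay under the median gene in such reads, but which ones lay above it differed between ovary and embryo. The gene's share of all small RNA divided by its share of all RNA had a median of 0.138 over 10578 genes whose ovary RNA base mean reached 10. Of the 8 members that reached that base mean, wde (0.0657), G9a (0.0658), HP1a (0.0685), Su(var)3-7 (0.0615), HP1c (0.0443) and HP1b (0.0271) lay under it. Those above it were egg (0.146) and Su(var)3-9 (0.201), the genes that share exon sequence with the most abundant overlapping genes, whose part in these ratios was not tested. Both also had the lowest ovary RNA levels of the 8, at percentiles 50.9 and 66.1. The RNA share is the divisor of the ratio, and genes of like RNA level were not compared. In 3-5 h embryos the median ratio was 0.503 over 10846 genes, and G9a (1.03, percentile 69.7) and wde (0.727, percentile 60.6) lay above it. The ratio was 0.372 for egg, 0.271 for Su(var)3-7, 0.263 for HP1a, 0.158 for Su(var)3-9 and 0.0958 for HP1b, and HP1c was listed at 0. These embryo ratios rest on small RNA base means of 46.6 or less. The order of ovary base means followed that of RNA (Spearman's rho 0.97 over the 9 genes, and 0.87 over 17875 genes). Gene length enters both of these orders too. By level, Su(var)3-9 was at rank 7 in ovary RNA and rank 4 in ovary small RNA.

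In embryos, 6 members were above the median gene at 0-2 h and 5 at 3-5 h, and 2 at each age when only genes with a base mean of 10 or more set the median. G9a had base means of 57.9 and 46.6 (levels 46.9 and 49.1), the highest level of the 9 at both ages. HP1a had 9.86 and 7.67 (levels 46.3 and 46.8), close to G9a per kb. wde had 20.4 and 15.6 (levels 16.8 and 16.7), Su(var)3-7 had 11.4 and 12.4 (levels 14.2 and 20.0), and egg had 10.3 and 5.69 (levels 16.6 and 11.9). The remaining genes were near the limit of these libraries. Su(var)3-9 had 3.39 and 2.43, HP1b had 3.27 and 1.26, HP1c had 0.658 and was then listed at 0, and HP1e was listed at 0 at both ages.

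**Figure D2:**
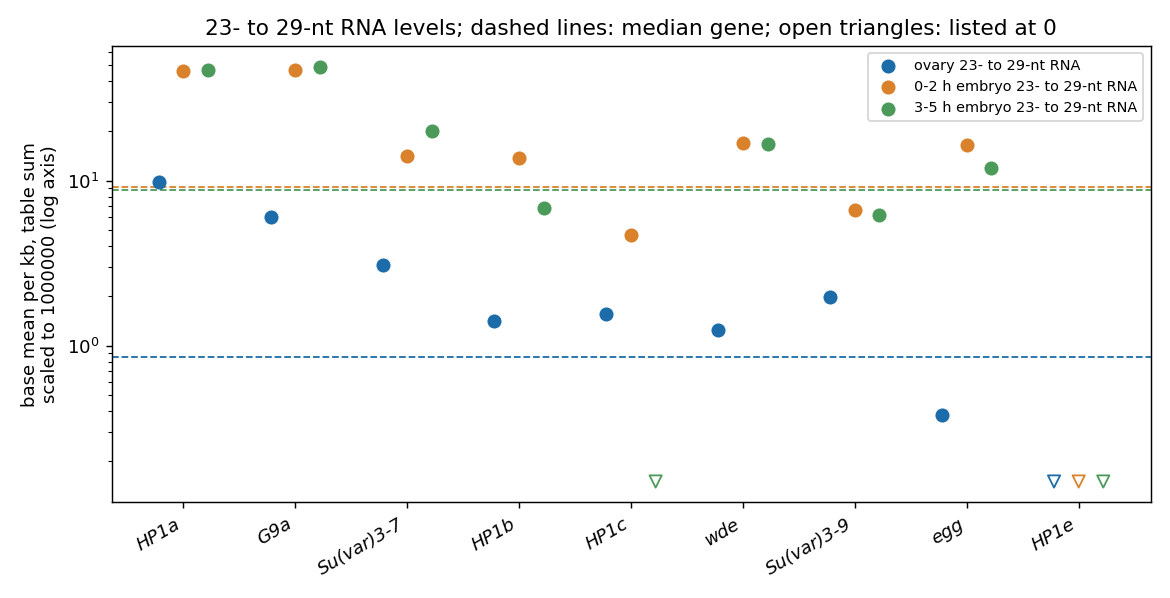
Levels of 23- to 29-nt RNA on the 9 genes in ovaries, 0-2 h embryos and 3-5 h embryos, as scaled base mean per kb of gene span on a log axis; each point is 1 pooled value, dashed lines mark the median gene and open triangles mark genes listed at 0, drawn at an arbitrary height. G9a and HP1a are highest in each table, and HP1e is at 0 in all 3.

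The peak lists asked whether the loci of the methylation machinery were themselves marked, and in which genotype. wde was the only member with a peak of both marks in both genotypes. G9a, Su(var)3-9 and egg had an H3K9me2 peak in Kdm3 GLKD and none in control, Su(var)3-9 had an H3K9me3 peak and HP1b an H3K9me2 peak in control only, and HP1a, HP1c, HP1e and Su(var)3-7 had none. The counts below are set against all 17620 genes of the ovary tables placed on the 6 chromosome arms, where a gene counts when its span shares at least 1 bp with a peak.

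For H3K9me2, 2 of the 9 members overlapped a control peak (16.2% of all genes) and 4 overlapped a Kdm3 GLKD peak (35.8% of all genes). The members that overlapped a peak in Kdm3 GLKD and none in control were 3 (22.9% of all genes), and 1 did the opposite (3.34% of all genes). For H3K9me3, 2 members overlapped a control peak (11.0% of all genes) and 1 a Kdm3 GLKD peak (17.4% of all genes). None gained an H3K9me3 peak (9.05% of all genes) and 1 lost it (2.62% of all genes). With 9 genes these counts lie near the shares of all genes and are no result about the members as a set. The Kdm3 GLKD lists were also longer and lower, with 9564 H3K9me2 peaks of median fold enrichment 1.56 against 3983 of 1.75 in control, and 5282 H3K9me3 peaks of 1.56 against 2946 of 1.77.

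At wde, the marked part of the gene was wider in the Kdm3 GLKD lists, and the fold enrichment given for each whole peak was lower. In the window of 500 bp on each side of the gene start, the marked part was narrower. H3K9me2 peaks covered 855 bp of that window in control and 138 bp in Kdm3 GLKD, and H3K9me3 peaks covered 317 and 189 bp. The control H3K9me2 peak covered 40.8% of the span with a fold enrichment of 1.87 and a −log10 q of 10.2. In Kdm3 GLKD a peak of 14571 bp covered 95.7% of it with a fold enrichment of 1.70 and a −log10 q of 5.60. Only 8156 bp of that peak lay in wde, so its fold enrichment is not a value for the gene alone. Within their own lists, these H3K9me2 peaks were at percentile 57.8 of fold enrichment in control and 70.3 in Kdm3 GLKD. The control H3K9me3 peak covered 41.1% with a fold enrichment of 2.89 and a −log10 q of 39.8. In Kdm3 GLKD 2 peaks with fold enrichments of 1.80 and 1.93 covered 82.5%. The H3K9me3 peaks were at percentile 85.6 of their list in control and at 72.0 and 78.5 in Kdm3 GLKD.

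The intron sequence of wde was covered in both genotypes, and the coding part almost wholly in Kdm3 GLKD. In control, 3023 of the 3475 bp in H3K9me2 peaks and 3023 of the 3502 bp in H3K9me3 peaks were intron, in the first part of the gene. In Kdm3 GLKD the H3K9me2 peak held all 4260 coding bases and the H3K9me3 peaks held 4028, against 162 and 373 in control. The same Kdm3 GLKD peaks covered 3499 and 2937 bp of intron. A fragment of the transposon INE-1 of 132 bp lies in the gene, at chr2R:10801962-10802093. It lies outside the control peaks of both marks and inside a Kdm3 GLKD peak of each mark. Whether it bears on the peaks was not tested.

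At Su(var)3-9, each genotype had a peak of a different mark over a different part. In control an H3K9me3 peak of 765 bp, with a fold enrichment of 2.04 and a −log10 q of 13.3, covered 590 bp of intron and the second exon printed above. In Kdm3 GLKD the nearest H3K9me3 peak lay 4.54 kb away. The Kdm3 GLKD H3K9me2 peak, with a fold enrichment of 1.42 and a −log10 q of 2.09, covered 54.5% of the span, all of it exon. The control list had its nearest H3K9me2 peak 9.18 kb away. Both peaks also lie on eIF2gamma, so they cannot be assigned to either gene.

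At G9a, the Kdm3 GLKD H3K9me2 peak of 3735 bp lay wholly within the gene and covered 43.1% of its span. It held 3416 coding bases and 319 bp of intron, with a fold enrichment of 1.71 and a −log10 q of 5.33, and it did not reach 500 bp on either side of the gene start. The control list had its nearest peak, 44084 bp long, ending 2.29 kb before the gene. On the X chromosome, 28.8% of 2678 genes overlapped an H3K9me2 peak in control and 70.8% in Kdm3 GLKD. G9a is thus 1 of many X-linked genes that overlapped a peak in the Kdm3 GLKD list.

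HP1b, the other X-linked member, went the other way. A control H3K9me2 peak of 293 bp covered 148 bp of its last exon outside the coding part, with a fold enrichment of 1.96 and a −log10 q of 14.3. In Kdm3 GLKD no peak overlapped the gene, and the nearest ended 0.766 kb before its start. At egg, the Kdm3 GLKD H3K9me2 peak of 554 bp held 496 coding bases, with a fold enrichment of 1.35 and a −log10 q of 1.46, near the weak end of that list at percentile 8.76 of fold enrichment.

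**Figure D3:**
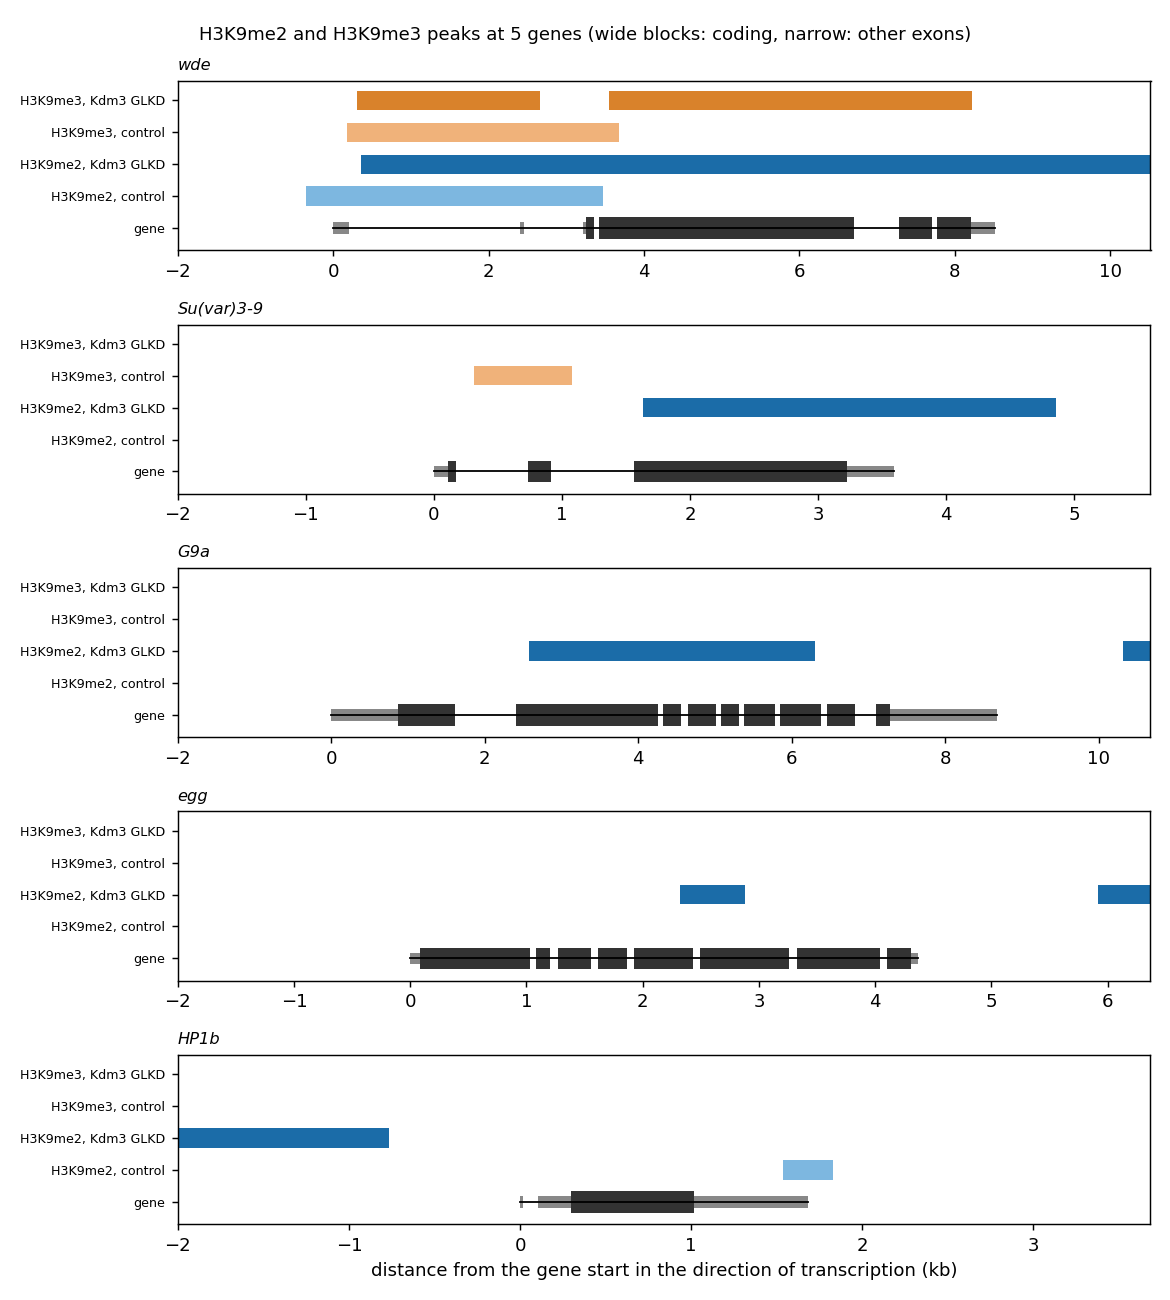
H3K9me2 (blue) and H3K9me3 (orange) peaks of control (pale) and Kdm3 GLKD (dark) at 5 genes, against distance from the gene start in kb in the direction of transcription; bars that reach the frame continue beyond it, and wide and narrow dark blocks are coding and other exons. The wde peaks cover mainly intron in control, and intron and coding part in Kdm3 GLKD, and the G9a peak spans 3735 bp inside the gene.

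The 4 genes without a peak differed in how far the nearest one was. The nearest H3K9me2 peak of HP1a lay 28.3 kb away in control and 0.419 kb away in Kdm3 GLKD, beyond its 3′ end. For HP1c the distances were 12.1 kb and 5.58 kb, and for HP1e 9.99 kb and 7.03 kb. For Su(var)3-7 they were 27.3 kb in both lists. No H3K9me3 peak came nearer than 6.14 kb to these 4 genes in either list.

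Rhino peaks overlapped 0 of the 9 members in control (0.306% of all genes) and 0 in Kdm3 GLKD (3.19% of all genes). The nearest Rhino peak was that of egg, 10.6 kb away in control and 10.5 kb in Kdm3 GLKD. The lists held 467 and 1882 Rhino peaks. Counts of 0 among 9 genes are what shares this low give, and they show no difference between the members and other genes.

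**Figure D4:**
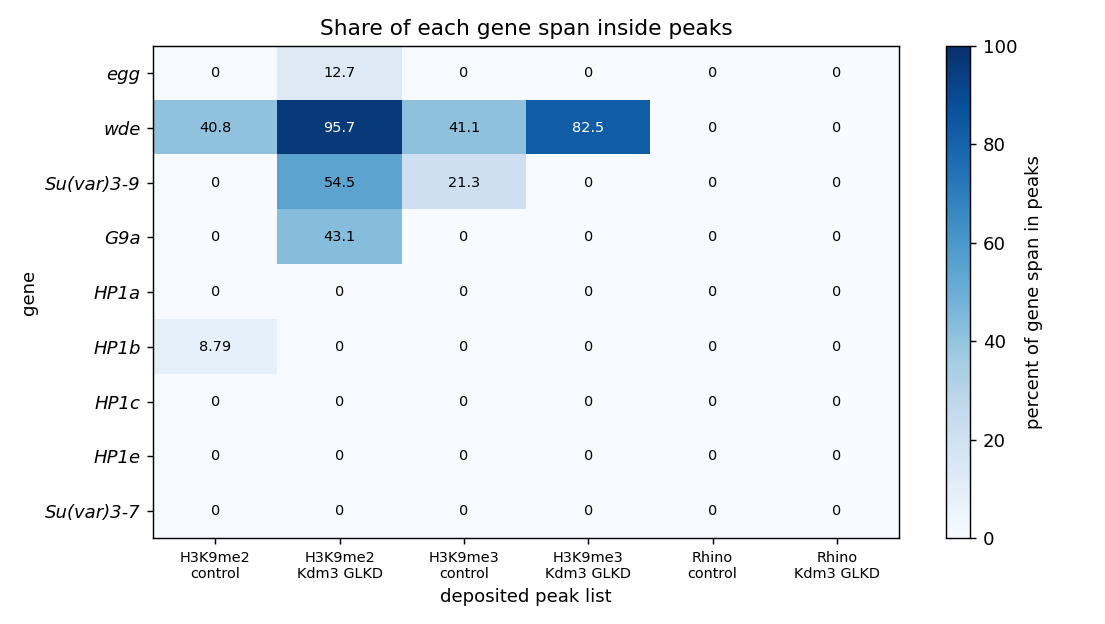
Percent of each gene's span inside peaks of the 6 deposited lists, with genes as rows, lists as columns and darker blue for a larger share; each cell is 1 list without replicates. wde reaches 95.7% for H3K9me2 and 82.5% for H3K9me3 in Kdm3 GLKD, and the Rhino columns are 0 throughout.

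Genes that act with these 9 gave a wider view of the same pathway. Of 3 H3K9 demethylases, Kdm4A had the highest ovary RNA level (41.1), Kdm4B had 13.7 and Kdm3, the gene targeted by the knockdown, had 2.76 as an average over both genotypes. Of 13 partners and readers of the mark, 12 had a base mean of at least 10 in each RNA table, and HP6, with 0.178 in the ovary and 9.61 in the embryo, did not. The paralog rhi, which encodes Rhino, had base means of 1244 and 685 and no peak in any list. All 9 genes of Piwi-guided silencing reached 10 in both tables. Of these 25 genes, 6 overlapped an H3K9me2 peak in control and 12 in Kdm3 GLKD, beside 16.2% and 35.8% of all genes. For H3K9me3 the counts were 6 and 7, beside 11.0% and 17.4% of all genes. The Kdm3 GLKD Rhino list overlapped 1 of the 25, mael, a gene of the piRNA pathway, beside 3.19% of all genes.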

How the data were processed

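RNA, small RNA and chromatin immunoprecipitation libraries of Drosophila ovaries and embryos were analysed from deposited tables. According to the study's methods, the authors aligned RNA reads to r6 gene sequences with Bowtie, counted them with featureCounts and ran DESeq2. Small RNAs of 23 to 29 nt went through the same steps except for the alignment, which kept only reads that mapped uniquely. Small RNA reads matching tRNA, miRNA, miscRNA or rRNA were discarded first. The base mean is the signal used here, a mean of normalised counts that the authors averaged over all libraries of both genotypes. The tables also hold the authors' log2 fold changes, standard errors, test statistics and p-values, which were not used. No column of a single library was used, so no test, SD or interval could be given. The depths of the libraries that the study lists were not used here, since the deposited tables hold pooled values. For peaks, the authors mapped reads to dm6 with BWA 0.7.17.4, removed duplicates with Picard 2.18.2.1 and ran MACS2 2.1.1.20160309.6 at a q-value of 0.05, with a broad cutoff of 0.1 for H3K9me2 and H3K9me3. The deposited lists give a fold enrichment, a ratio over background, and a −log10 q-value for each peak. How libraries were combined into 1 list is not given in the sources used here.

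Gene spans and exons came from Ensembl annotation of the same assembly, which held 17810 of 17875 gene identifiers of the ovary tables and 17547 of 17612 of the embryo tables. The last peak ended within the length of each chromosome arm. Sequences were read from the RefSeq copy of that assembly. Overlaps needed 1 bp. Levels were computed with pandas and NumPy, and overlap and level functions were tested on simulated data. Other lengths, thresholds, flanks and sums were tried as alternatives. The members and gene lists were chosen with earlier results of these data known. All 9 members, the genes overlapping them, 1 nearest profile for each, the fixed lists and rhi were named.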

Additional observations from a re-analysis of the deposited data

How the results depend on the processing

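No paired analysis was possible because the tables give no values of single libraries, and no library could be left out for the same reason. Counts of members overlapping peaks depended most on the fold enrichment. With peaks of at least 2-fold enrichment, the H3K9me2 count was 0 in control (7.59% of all genes) and 0 in Kdm3 GLKD (3.33%), and the H3K9me3 count in Kdm3 GLKD was 0 (4.35%), while the control H3K9me3 count was 2 (6.02%). With a −log10 q of at least 5, the Kdm3 GLKD H3K9me2 count was 2 in place of 4, wde and G9a (19.1% of all genes). With 10% of the span required, the control H3K9me2 count was 1 (12.1%). Within 500 bp of the gene start it was 1 in control (15.8%) and 1 in Kdm3 GLKD (23.8%). With a base mean of at least 10 required of the genes that set the median, the members above it were 3 in ovary small RNA, 2 at 0-2 h and 2 at 3-5 h. By construction, fewer peaks, a required share of the span or a higher median cannot give more members. The window at the gene start lies partly outside the gene span, so its count is not fixed in this way. The other 35 alternative counts stayed within 1.5 times the reported ones, but not all were equal to them. With 1 kb added on each side of the gene span, 6 members overlapped a Kdm3 GLKD H3K9me2 peak (44.1% of all genes), among them HP1a and HP1b. With a base mean of at least 10, 6 members were above the ovary RNA median in place of 8. With all listed genes setting the median, 8 were above it in small RNA at 0-2 h and 7 at 3-5 h. Leaving the 10 highest genes out of a table's sum raised every level in that table by the same factor, from 1.05 in embryo RNA to 1.71 in ovary small RNA. Gene span in place of exon length multiplied RNA levels by 0.570 to 1.00, and exon length in place of gene span multiplied small RNA levels by 1.00 to 1.75. Exon length not shared with another gene, chosen after seeing the data, gave ovary levels of 3.44 for egg and 17.4 for Su(var)3-9. This setting keeps the whole base mean over a shorter length, so it can only raise a level. It does not show how reads of shared exons were assigned.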
